A study of Capra hircus with 6 samples.

Results

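LALBA and PAEP, the genes of the whey proteins alpha-lactalbumin and beta-lactoglobulin, were described in the lactating mammary gland of goats of contrasting CSN1S1 genotype. The members were the probes that the platform annotation pairs with the symbol LALBA or PAEP. There was 1 probe for each gene, 2 of the 8379 probes on the array and 2 of the 6535 genes with a symbol of their own, and both passed the filter on dim probes, as 6733 probes did. RNA came from 6 goats, 3 of the Low CSN1S1 genotype and 3 of the High CSN1S1 genotype, all deprived of food for 48 h, so that genotype was the only labelled difference between the groups and no fed animal was analysed here. Each of 3 pairs, A, B and C, set a Low goat against a High goat on 2 arrays, with the dyes Cy3 and Cy5 exchanged between the arrays, so both arrays of a pair held the same RNA. Unless another scale is named, a value is a log2 ratio, Low over High. The 2 arrays were averaged within each pair, and n = 3 pairs of different goats. The platform annotation pairs both probes with bovine gene records, while the RNA was from goats. Breed, age and stage of lactation are not given in the sources used here.

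Milk protein genes are expressed in the secretory epithelial cells of the gland under prolactin, glucocorticoid and insulin signalling. Alpha-lactalbumin binds the galactosyltransferase B4GALT1 in the Golgi apparatus and turns it into lactose synthase, and lactose draws water into milk. It descends from the lysozymes. Beta-lactoglobulin, annotated under the symbol PAEP, is a lipocalin that binds small hydrophobic molecules such as retinol and is the main whey protein of ruminant milk. The caseins, the other large class of milk proteins, form micelles that carry calcium phosphate. Their genes are neighbours in the goat assembly ARS1.2, which places LALBA and PAEP on other chromosomes. At goat CSN1S1, the gene of alpha-s1-casein, the A allele gives much and the F allele little of the protein, and the scanned images are named AA for High and FF for Low goats.

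Signals of both whey genes were far above background. The LALBA probe stood above background in 12 of 12 dye readings, at 29.3 to 359 times the local background, and the PAEP probe in 12 of 12, at 71.3 to 492 times. No spot of either probe was marked as saturated. Over all probes the median signal lay between 2.66 and 6.02 times background per reading, and between 66.3% and 87.4% of probes stood above it. CSN1S1, which checks the labels, was lower in the Low goat on 6 of 6 arrays, with a mean log2 ratio of -2.71 (limma adjusted p = 2.91e-09).

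LALBA signals, as scanner intensity with background subtracted and no normalization, ran from 981 to 24106. In pair A the Low goat read 9123 on array 1 and 20789 on array 2, and the High goat 5728 and 11998.5. In pair B the Low goat read 11918 and 2694, and the High goat 8186 and 981. In pair C the Low goat read 24106 and 4353, and the High goat 21422.5 and 4793. The Low goat was thus the brighter of the pair on both arrays of pairs A and B, and on array 1 but not on array 2 of pair C.

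PAEP signals on the same scale ran from 5498 to 26373. In pair A the Low goat read 12743 on array 1 and 14805 on array 2, and the High goat 18052 and 26373. In pair B the Low goat read 24155 and 6587, and the High goat 25287 and 5498. In pair C the Low goat read 13714 and 12579.8, and the High goat 17930.5 and 25721. The Low goat was the dimmer of the pair on every array except array 2 of pair B.

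**Figure D1:**
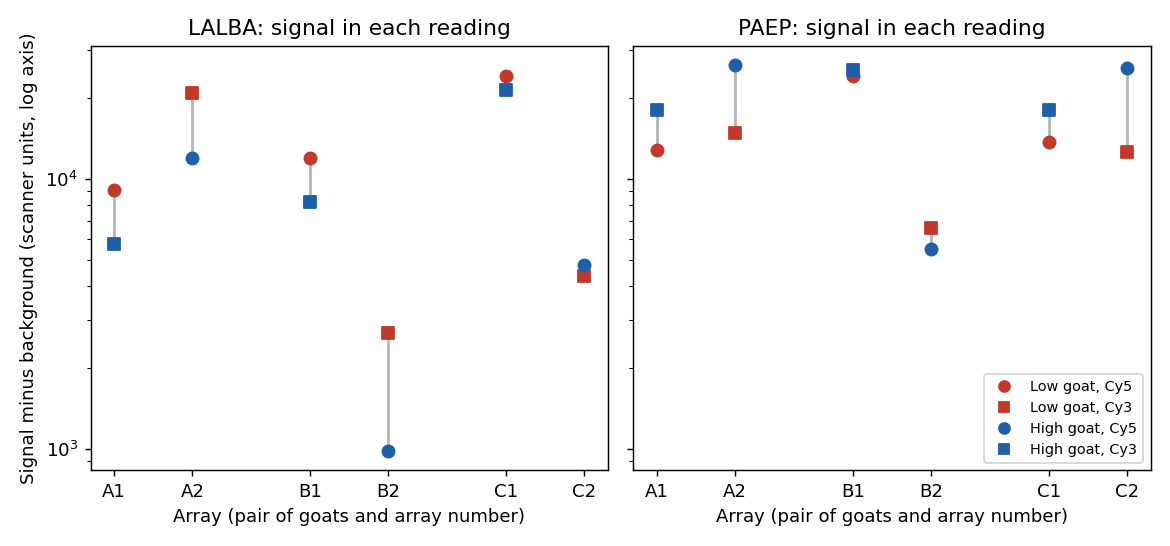
Signal minus background (scanner units, log axis) of LALBA (left) and PAEP (right) in each of the 12 readings; the horizontal axis gives the pair and array, red is the Low and blue the High goat, circles are Cy5 and squares Cy3, and a grey line joins the goats of an array. LALBA spans 981 to 24106, with array 2 of pairs B and C well below array 1 in both goats, while PAEP spans 5498 to 26373.

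The LALBA signal of the same RNA differed more between the arrays of a pair than the genotypes did on either array, in 3 of 3 pairs. Levels were set side by side on the log2 scale after loess and Aquantile normalization, which makes single channels comparable. LALBA was 2.47 higher on array 1 than on array 2 of pair B, a 5.56-fold difference, and 1.93 higher in pair C (3.82-fold). In pair A it was 1.08 lower on array 1 (log2 difference -1.08). Of all tested probes 0.238%, 0.965% and 0.965% shifted more than LALBA in pairs A, B and C, and the median shift of a probe was 0.15, 0.33 and 0.27. PAEP shifted by -0.44, 1.70 and -0.56, more than its mean ratio in pair B only. Large shifts were also found among casein probes. The probe annotated to both CSN3 and CSN2 shifted by 2.14 in pair C, more than LALBA. The brighter probe of the casein gene CSN3 shifted by 2.04 in pair B, and CSN1S1 by -0.84 in pair A. The dimmer CSN3 probe shifted little, by 0.02, 0.13 and -0.05 in pairs A, B and C. Both goats of a pair are on each array, so the ratio within an array, and not the level, was compared between genotypes. What made a probe's signal differ between the arrays of a pair was not tested.

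Averaged over the 2 arrays of each goat, LALBA levels (log2 intensity) were 13.58, 12.63 and 13.20 in the Low goats of pairs A, B and C and 12.91, 11.69 and 13.16 in the High goats. The genotypes overlapped, at 13.14 ± 0.48 in Low and 12.58 ± 0.79 in High goats (SD, n = 3). PAEP levels were 13.53, 13.81 and 13.67 in the Low goats and 14.24, 13.75 and 14.33 in the High goats. These overlapped through pair B alone, with means of 13.67 ± 0.14 in Low and 14.11 ± 0.31 in High goats (SD, n = 3). These SDs include the shifts between arrays. Compared as unpaired goats, neither gene passed in limma (unadjusted p = 0.237 for LALBA and 0.0496 for PAEP). In that fit 0 of 6733 probes passed, so CSN1S1 did not pass either. An unadjusted p under 0.05 was found for 11 probes, PAEP among them.

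Within arrays, LALBA was brighter in the Low goat in pairs A and B and nearly equal in pair C. The log2 ratio was 0.50 on array 1 and 0.85 on array 2 of pair A, 0.51 and 1.37 in pair B, and 0.004 and 0.08 in pair C. All 6 arrays were above 0, as they were for 1.13% of tested probes, while 1.86% had all 6 below 0 and 2.99% either. Pairs A and B stood well above pair C. The pair means were 0.68, 0.94 and 0.04, and the mean over pairs was 0.55 ± 0.46 (SD, n = 3), a 1.47-fold higher signal in Low goats. The difference did not pass over all probes (limma adjusted p = 0.170, unadjusted p = 0.00163, 95% interval 0.27 to 0.84). Neither LALBA nor PAEP passed, against 0.446% of tested probes, 0.0297% higher and 0.416% lower in Low goats. Both had an unadjusted p under 0.05, as did 11.3% of tested probes. The exact sign permutation test over the 3 pairs gave p = 0.25, the smallest it allows. Without pair C, the pair nearest 0, the ratio of LALBA was 0.81 and passed (limma adjusted p = 2.65e-05). Without pair A it was 0.49 and without pair B 0.36, and neither passed (limma adjusted p = 0.129 and 0.556). Each of these fits rests on 2 pairs. Without pairs C, A and B in turn, 41 of 6744, 66 of 6739 and 23 of 6745 probes passed. Pair C stands out by the LALBA values themselves, so the pass without it is a description.

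The Cy3 array of each Low goat gave the higher LALBA ratio in 3 of 3 pairs. With the Low goat in Cy5 the ratios were 0.50, 0.51 and 0.004, a mean of 0.34, and with the Low goat in Cy3 they were 0.85, 1.37 and 0.08, a mean of 0.77. The dye effect is the distance of each array from the pair mean, signed by the array with the Low goat in Cy5. It was -0.18, -0.43 and -0.04, pair by pair. Over all tested probes the SD of the dye effect was 0.17, 0.19 and 0.13 in the same pairs. A dye effect of the same size on both arrays cancels in their mean. With either dye orientation alone LALBA passed (limma adjusted p = 0.0153 and 0.0126), in fits where dye and genotype cannot be told apart and where 1153 and 2460 probes passed. Array 2 of pair B, which gave the highest ratio, was also the array on which LALBA was dimmest in both goats, and the part of signal strength in that ratio was not tested. Without that array the mean ratio was 0.41.

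PAEP was dimmer in the Low goat in pairs A and C. The log2 ratio was -0.65 on array 1 and -0.77 on array 2 of pair A, and -0.55 and -0.77 in pair C. In pair B it was -0.10 and 0.22. The pairs did not all point the same way, with means of -0.71, 0.06 and -0.66. The mean over pairs was -0.44 ± 0.43 (SD, n = 3), and the signal, 1.35-fold lower in Low goats, did not pass (limma adjusted p = 0.271, unadjusted p = 0.00467, 95% interval -0.71 to -0.17). The exact sign permutation test over the 3 pairs gave p = 0.5. With Low goats in Cy5 alone the mean ratio was -0.43 and passed (limma adjusted p = 0.00417). In Cy3 alone it was -0.44 and did not pass (limma adjusted p = 0.0611). Dye and genotype cannot be told apart in these fits, where 1153 of 6746 and 2460 of 6749 probes passed. Without pair B, the only pair above 0, the ratio was -0.68 and passed (limma adjusted p = 7.06e-04). Without pair A it was -0.30 and without pair C -0.33, and neither passed (limma adjusted p = 0.277 and 0.579). Each of these fits rests on 2 pairs. Without pair B 23 of 6745 probes passed. Pair B stands out by the PAEP values themselves, so the pass without it is a description. The dye effect of PAEP was 0.06, -0.16 and 0.11, with no shared sign.

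The printed copies of each probe differed far less than the pairs did. The 12 LALBA spots lay between -0.03 and 1.41, 11 of them above 0, and the copies on an array differed by at most 0.08. The 11 PAEP spots used lay between -0.80 and 0.22, with copies at most 0.14 apart, and 1 of the 11 was above 0. The remaining PAEP spot, on array 2 of pair B, had been flagged by hand and was left out. In the authors' deposited series table that spot stood at 0.22, beside 0.23 for its copy.

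**Figure D2:**
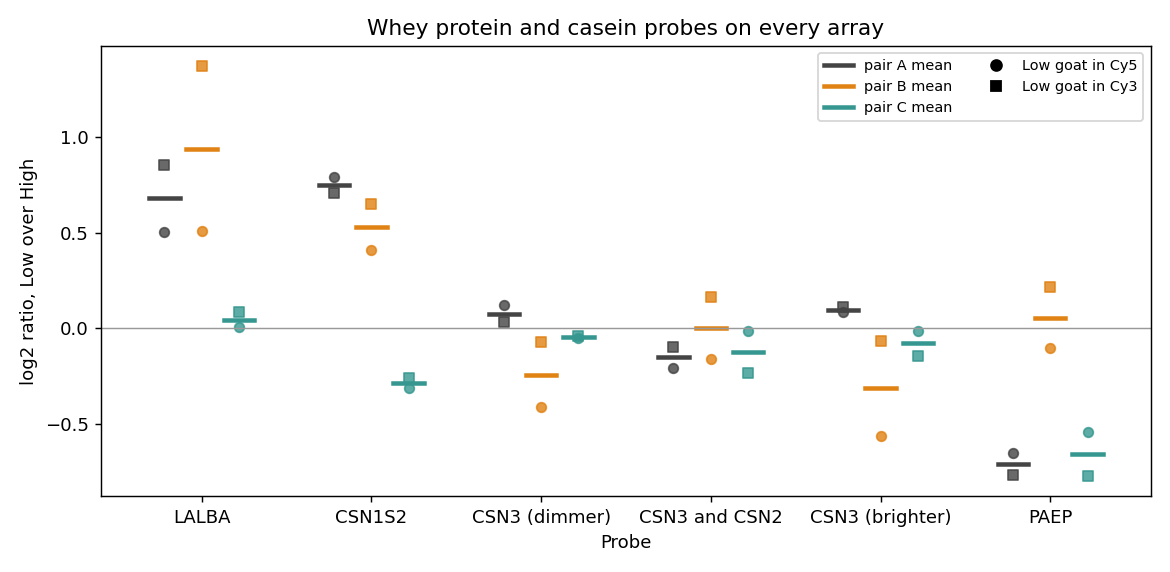
log2 ratio of Low over High for the whey protein probes and the casein probes other than CSN1S1; each point is an array (circle with the Low goat in Cy5, square in Cy3), each bar the mean of a pair, and colour marks the pair. LALBA lies above 0 on all 6 arrays but near 0 in pair C, and PAEP lies below 0 in pairs A and C but not in pair B.

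Set against the whole array, both whey genes were at the edges. The mean log2 ratio of LALBA was the highest of the 6733 tested probes, ahead of the antioxidant enzyme gene GPX2 (0.37), which passed, and CSN1S2 (0.33), which did not. It was the highest ratio on array 2 of pair A and on array 2 of pair B, but ranked 3307 and 2120 on the arrays of pair C. PAEP ranked 13 from the lowest mean ratio. Both were also among the probes that varied most between pairs. The SD over pairs ranked 6 for LALBA and 9 for PAEP from the largest, at 0.46 and 0.43, while the median probe had 0.0611. The milk protein genes SPP1, LTF and CSN1S2 varied more, at 0.87, 0.56 and 0.55, and the other milk protein genes tested varied less. The adjusted and unadjusted p of limma and its intervals take most of their spread from all probes, with 7.47 pooled degrees of freedom against 2 of the gene's own. The p-values and intervals therefore rest on less spread than LALBA and PAEP showed.

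**Figure D3:**
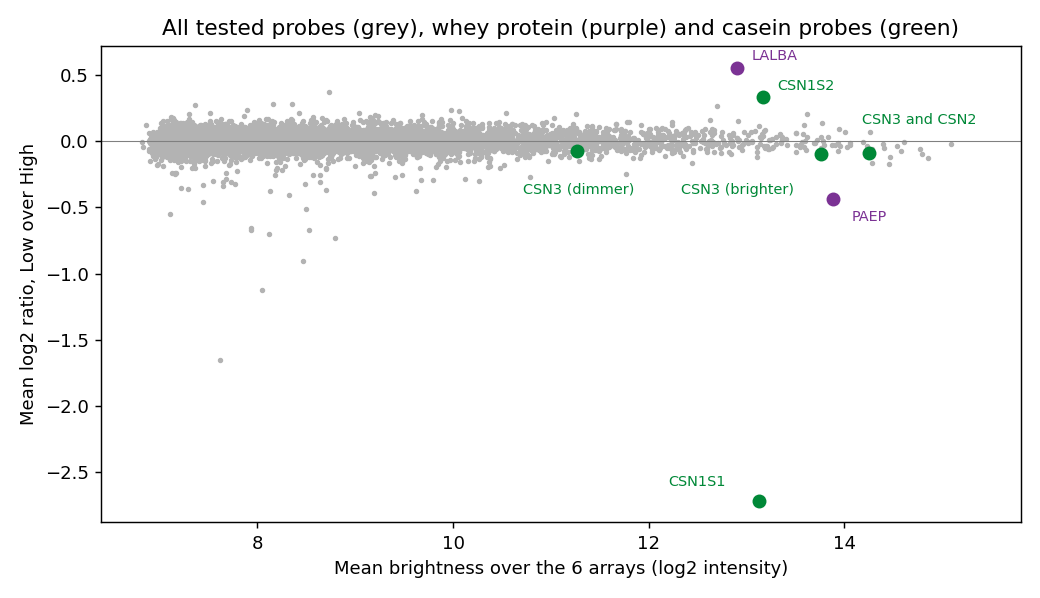
Mean log2 ratio of Low over High against mean brightness (log2 intensity, over the 6 arrays) for all 6733 tested probes in grey, whey protein probes in purple and casein probes in green. LALBA is the highest point at 0.55, PAEP lies at -0.44, and CSN1S1 is the lowest at -2.71.

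The difference between the whey genes was the same way in every pair. LALBA minus PAEP was 1.39, 0.88 and 0.70 on the log2 scale in pairs A, B and C, with a mean of 0.99 ± 0.36 (SD, n = 3). In Low relative to High goats the LALBA signal was thus 1.99-fold higher relative to that of PAEP, with pairs between 1.63-fold and 2.62-fold. The 6 arrays gave 1.16, 1.62, 0.61, 1.15, 0.55 and 0.86, and none was near 0. The exact sign permutation test gave p = 0.25, the smallest that 3 pairs allow (0.393 after Benjamini-Hochberg adjustment over the 11 differences computed). In pair B the gap came from LALBA, with PAEP at 0.06, and in pair C from PAEP, with LALBA at 0.04. The mean difference lay between 0.77 and 1.21 in the 27 alternatives that gave it. Both genes were chosen with their ratios known, so this difference is a description.

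Signals of different probes are not amounts of RNA, so abundance against the caseins was read as the change of each whey gene relative to each casein probe on the same arrays. Relative to CSN1S1, LALBA was 3.27 ± 0.50 higher in Low goats (SD, n = 3; 9.62-fold) and PAEP 2.27 ± 0.55 higher (4.84-fold), differences set mainly by CSN1S1 at -2.71. For CSN1S2, which encodes alpha-s2-casein, the pair ratios were 0.75, 0.53 and -0.29. LALBA minus CSN1S2 was -0.07, 0.41 and 0.33, with a mean of 0.22 ± 0.26 (SD, n = 3) that did not hold its sign across pairs. PAEP minus CSN1S2 was -1.46, -0.47 and -0.37, below 0 on 6 of 6 arrays, with a mean of -0.77 ± 0.60 (SD, n = 3).

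CSN3 encodes kappa-casein, which covers and stabilizes the micelle, and had a brighter and a dimmer probe, with log2 ratios of -0.10 ± 0.21 and -0.07 ± 0.16 (SD, n = 3). LALBA minus the brighter CSN3 probe had a mean of 0.65 ± 0.57, and all 6 arrays were above 0, from 0.02 to 1.44. Against the dimmer probe the mean was 0.63 ± 0.55 and again 6 of 6 arrays were above 0. The probe whose annotation names CSN3 together with CSN2, the beta-casein gene, gave -0.09 itself and a LALBA difference of 0.65 ± 0.42. The spot of that probe marked as saturated was left out, and with saturated spots kept the difference was 0.64. With print-tip loess pair C turned to -0.02 against the brighter and -0.05 against the dimmer CSN3 probe, and the exact permutation p of both LALBA differences was 0.5 in place of 0.25. PAEP minus the brighter CSN3 probe was -0.81, 0.37 and -0.58, with a mean of -0.34 ± 0.62 and 2 of 6 arrays above 0. The dimmer probe gave a PAEP difference of -0.37 ± 0.58 and the shared probe -0.35 ± 0.35, and in each case pair B had the opposite sign. None of the 11 differences passed the exact sign permutation test, where 0.25 is the smallest p possible, with p between 0.25 and 0.5.

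**Figure D4:**
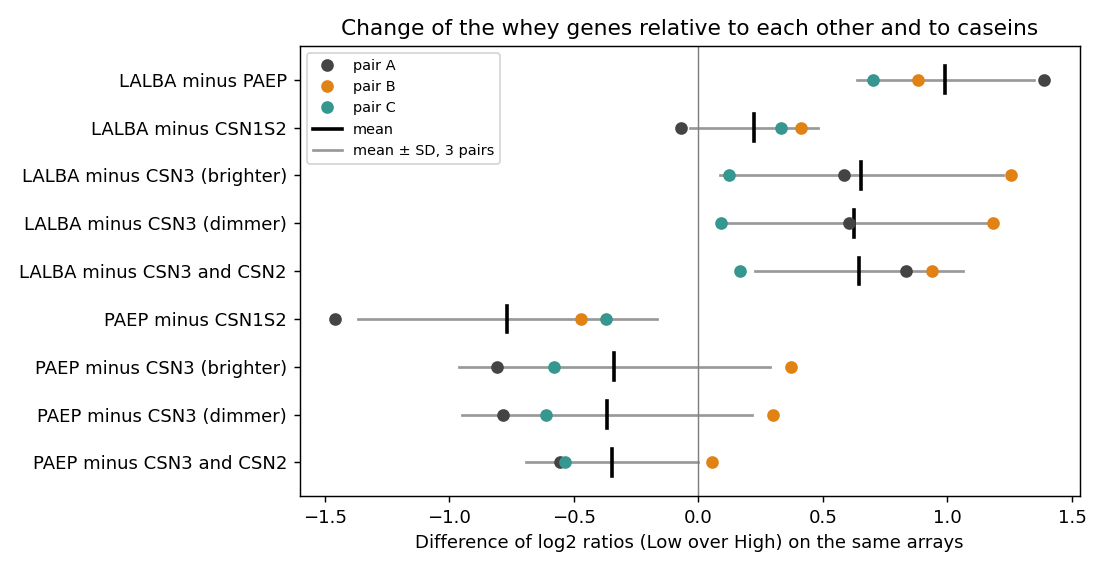
Difference of log2 ratios (Low over High) between a whey gene and another probe on the same arrays; points are the 3 pairs, the black bar is their mean and the grey line the mean ± SD. The LALBA minus PAEP points lie between 0.70 and 1.39, and the CSN1S1 differences are left out for scale.

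Among the other milk protein genes, CSN1S1 fell and no other passed. Of 23 listed genes 15 were tested, 1 passed below 0 and 0 above, and the median log2 ratio was -0.033, beside 0.0033 over all 5323 genes tested, of which 23 passed below 0 and 2 above. An unadjusted p under 0.05 was found for 7 of the 15, LALBA and PAEP among them, and for 11.2% of all genes tested, of which 52.0% were above 0. LTF, the gene of the iron-binding milk protein lactoferrin, was at -0.67 ± 0.56 (SD, n = 3; limma adjusted p = 0.170). LALBA held the highest value of the list and PAEP the fourth lowest of its values, after CSN1S1, SPP1 (-0.91) and LTF. SPP1 encodes osteopontin and was named after its value was seen. The list of milk fat globule membrane genes had 7 tested members and a median of 0.020, with MFGE8, a membrane glycoprotein, at 0.16, the lipid transporter CD36 at -0.09 and the lipid droplet protein PLIN2 at -0.09. None of the 7 passed in limma, and 1 had an unadjusted p under 0.05 (14.3%, against 11.2% of all genes tested).

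LALBA acts in lactose synthesis, so the genes of glucose entry and of that pathway were read beside it. Of 18 listed genes 11 were tested, 7 were above 0 (63.6%, against 52.0% of all genes tested) and the median was 0.021. None passed in limma, and 3 of the 11 had an unadjusted p under 0.05 (27.3%, against 11.2% of all genes tested). These were LALBA itself, SLC2A4 and HK1. SLC2A4, a glucose transporter that responds to insulin, was at 0.21 ± 0.22, with pair values of 0.39, 0.27 and -0.03. HK1, a hexokinase that traps glucose in the cell, was at 0.11 ± 0.08 (SD, n = 3). B4GALT1, the partner of alpha-lactalbumin in lactose synthase, was at -0.02, with -0.05, 0.04 and -0.04 in the pairs. It was named for that role after its value was seen.

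Genes of lactogenic hormone signalling and regulators of milk protein genes had a median of 0.0041 over 13 tested members of 26 listed. Of these 13, 7 were above 0 (53.8%, against 52.0% of all genes tested). None passed in limma, and 2 had an unadjusted p under 0.05 (15.4%, against 11.2% of all genes tested). STAT3, a transcription factor of mammary involution, was at -0.25 ± 0.29 (SD, n = 3). PTPN11, a phosphatase in growth factor signalling, was at -0.12, and CISH, a feedback inhibitor of cytokine signalling, at 0.09. STAT5A and STAT5B, which carry the prolactin signal to milk protein genes, were at -0.03 and 0.03 and were named after their values were seen.

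Of the lipocalin and fatty acid-binding protein genes, 5 of 15 listed were tested and 0 passed in limma. PAEP itself and RBP4 had an unadjusted p under 0.05, 2 of 5 beside 11.2% of all genes tested. PAEP was far from the others, which were RBP4, the plasma retinol carrier, at -0.13, FABP3, a fatty acid carrier of milk-secreting cells, at 0.12, the complement subunit C8G at 0.04 and APOD at 0.0002. Among the lysozyme family genes LALBA was the only member tested, of 2 on the array.

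The genes with the pair pattern most like each whey gene were taken as the 5 at the smallest distance over the 3 pair ratios. For LALBA they were CSN1S2 (distance 0.53), GPX2 (0.58), GPAM (0.66), SLC2A4 (0.73) and SWT1 (0.74), and LALBA itself lay 1.16 from no change in any pair. GPX2 passed (limma adjusted p = 0.0262), and GPAM, the acyltransferase that starts glycerolipid synthesis, did not (0.28, adjusted p = 0.0576). For PAEP, at a distance of 0.97 from no change, they were LEP (0.39), the leptin gene, then ABCB1 (0.43), a drug efflux transporter, BAZ2B (0.45), VSIG4 (0.47), a macrophage receptor, and RHBDD2 (0.48), none of which passed in limma. BAZ2B and VSIG4 stood above background in only 3 of 6 Low readings, against 5 and 6 of the High readings, so their ratios rest partly on Low signals near background. LEP gave -0.34, 0.10 and -0.57 in pairs A, B and C on its brighter probe, while its dimmer probe gave -0.10, -0.06 and 0.006. With 3 pairs such a likeness is a description.

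The tissue was whole gland, in which fewer secretory cells and less RNA per cell cannot be told apart. Of 35 tested markers of luminal, myoepithelial, immune, fibroblast, fat, endothelial and red blood cells 0 passed in limma. An unadjusted p under 0.05 was found for 8 of them (22.9%, against 11.2% of all genes tested). The medians of the 7 lists lay between -0.057, for fibroblast and matrix markers, and 0.0085, for leukocyte markers. Leukocyte markers lay on both sides of 0, with 6 of 9 above 0 (66.7%, against 52.0% of all genes tested). Among them the integrin ITGB2 was at -0.16, the Fc receptor FCGR2B at 0.15 and the macrophage protein CD68 at 0.12. Luminal KRT19, KRT8 and MUC1 were at -0.13, -0.07 and 0.06, and myoepithelial KRT17, ACTA2 and TPM2 at -0.10, -0.08 and -0.07. The matrix protein SPARC was at -0.13, and VIM and COL6A1 at -0.11 and -0.004. Of the fat cell markers LEP was at -0.27, CIDEC at -0.07 and the lipase LIPE at 0.07, and of the endothelial markers CDH5 was at -0.08, VWF at 0.03 and TIE1 at -0.004. ALAS2, of haem synthesis in red cells, was at -0.003. The part of cell makeup in the whey gene ratios was not tested.

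Across the alternatives, the mean ratio of each whey gene kept its sign. LALBA ranged from 0.34 to 0.81 over 28 alternatives and PAEP from -0.68 to -0.30 over 27, of which 1 could change no value because all 21 saturated spots were already left out as flagged manual or poor. LALBA passed in 4 of its alternatives and PAEP in 2. The alternative that fitted the 6 arrays with a dye term and the pair as a random block gave LALBA a limma adjusted p of 0.0399. Its block correlation was estimated at -0.08, so it took the arrays of a pair as nearly independent although they held the same RNA. That p-value therefore counts arrays rather than pairs of goats. With print-tip loess the LALBA ratio of pair C was -0.07, below 0.

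**Figure D5:**
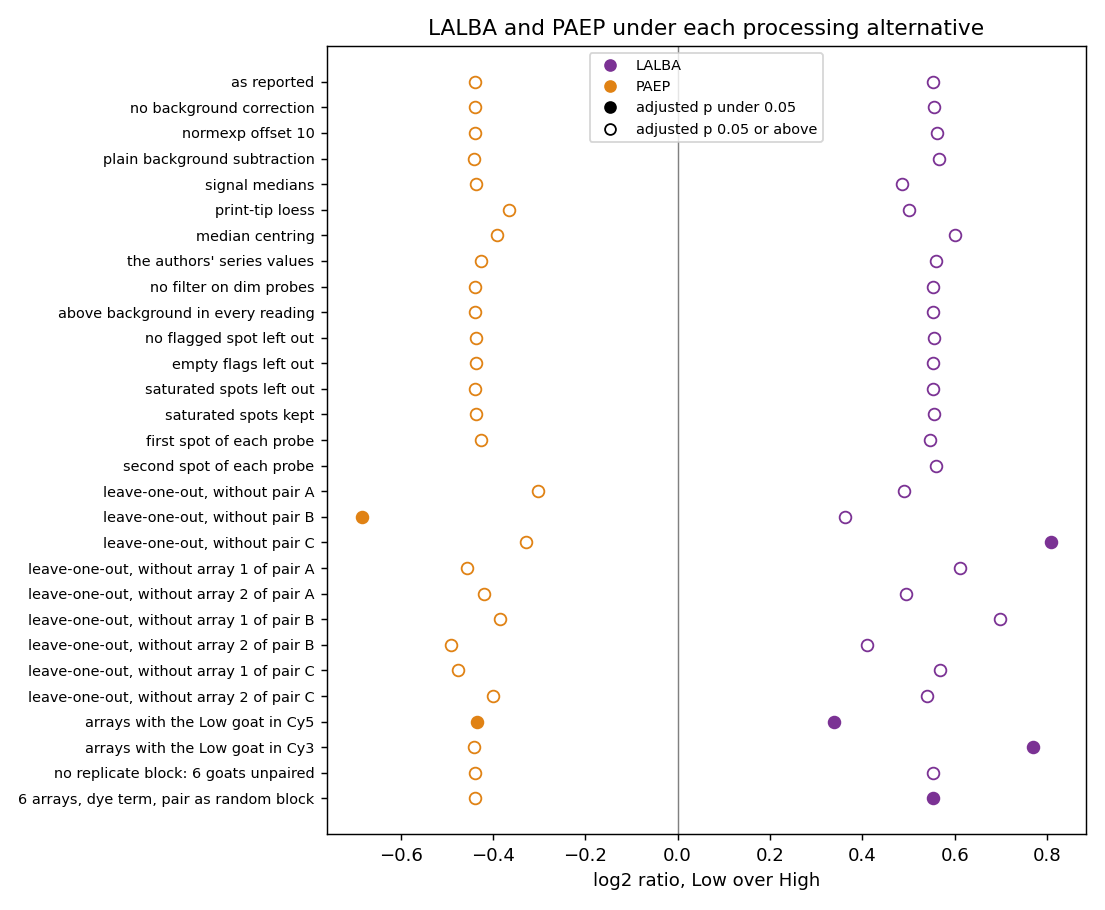
Mean log2 ratio of Low over High of LALBA and PAEP as reported and under each alternative; filled points passed at an adjusted p of 0.05 and open points did not. All LALBA values lie between 0.34 and 0.81 and all PAEP values between -0.68 and -0.30.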

How the data were processed

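Whole mammary RNA was compared on 2-colour arrays, 5 µg labelled per the labels. Per the labels and file headers, the deposited scanner files hold spot intensity and local background read with ImaGene (6.0 in the labels, 6.0.1 in the headers). The deposited series table holds log2 ratios, whose direction and near-zero centring were found by setting them against the scanner values. How the submitters normalized it is not stated in these sources. From the intensities, limma 3.58.1 in R 4.3.3 applied normexp (offset 50) and loess within each array, without the spots flagged manual or poor, which include all 21 saturated probe spots. Copies of a probe were averaged, ratios turned to Low over High, the dye-swapped arrays of a pair averaged, and 3 pair means tested with Benjamini-Hochberg adjustment over 6733 probes. A probe was tested if 6 or more of its 12 readings lay over 2 SDs of background above it. Precision is limited by the 3 pairs of goats. The limma p-values combine the spread between these pairs with a spread pooled over all probes. On simulated data for this comparison, 93.9% of 49 probes changed 1.25-fold were recovered among 6651 probes, with 6 false calls. Estimated log2 changes were on average 0.77 to 0.84 of the true ones, by size of change. The simulated spread between pairs was drawn from the spread pooled over all probes. The share recovered therefore does not hold for genes that vary between pairs as much as LALBA and PAEP. Named genes were LALBA, PAEP, all casein probes, the 5 nearest genes of each whey gene, and, per list, the members with the 3 smallest p, at the brightest probe. Members and lists were chosen with earlier results of these data known. Platform annotation gave 6840 probes 1 symbol, 93 several and 1446 none. The alternative of keeping saturated spots was added once the data had been seen. Other alternatives changed background, normalization, filters, flags, spots, dyes, pairing and replicates.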

Additional observations from a re-analysis of the deposited data

Results flagged for a closer look

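The dimmer CSN3 probe, used as a comparison for the whey genes, had 1 array far from the others: on array 1 of pair B its log2 ratio was -0.41, and the gap to the nearest of the other arrays was large against the range of the 6. Both arrays of a pair held the same RNA, so the 6 values are not independent, and chance sets off this criterion in about 1 in 20 groups. No array of LALBA or PAEP met it.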

How the results depend on the processing

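The LALBA ratio was 0.55 as reported and did not pass, but passed at 0.81 without pair C, 0.34 with the Low goat in Cy5, 0.77 with the Low goat in Cy3 and 0.55 with the 6 arrays fitted with a dye term and a random block. The random block fit took the arrays of a pair as nearly independent, although they held the same RNA. Leaving out 1 pair or array gave 0.36 to 0.81. The PAEP ratio of -0.44 passed at -0.68 without pair B and at -0.43 with the Low goat in Cy5, but not at -0.44 with the Low goat in Cy3 (adjusted p = 0.0611), and leaving out 1 pair or array gave -0.68 to -0.30. The second spot alone gave no PAEP value, since 1 such spot was flagged. No mean difference between a whey gene and another probe changed sign, but with print-tip loess LALBA minus either CSN3 probe was below 0 in pair C. Leaving saturated spots out changed nothing, since all 21 were already left out as flagged manual or poor. Keeping them, a choice made after seeing the data, gave 0.55 for LALBA, -0.44 for PAEP and 32 probes past the threshold. The CSN3 probes turned to 0.0081 (brighter) and 0.014 (dimmer) without pair B, and leaving out 1 pair or array gave -0.20 to 0.0081 and -0.15 to 0.014. Of 30 probes past the threshold, 2 were higher and 28 lower in Low goats. That count was 19 with an offset of 10, 19 with signal medians, 19 with the second spot alone, 1 with plain subtraction and 59 with the random block. It was 1153 with the Low goat in Cy5 (635 higher, 518 lower) and 2460 in Cy3 (1215 higher, 1245 lower), and between 3 and 66 with 1 pair or array left out. Without the replicate block, as 6 unpaired goats, 0 probes passed in limma (11 at an unadjusted p under 0.05), and CSN1S1 stayed at -2.71 but did not pass (adjusted p = 0.999991, unadjusted p = 0.000758). Causes were not tested. Both whey probes were far above background in all 12 readings. Their SD between pairs was 0.46 for LALBA and 0.43 for PAEP, against a median of 0.0611 over all probes. SPP1, LTF and CSN1S2 had larger SDs.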
